A study of Mus musculus with 4 samples.

Results

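The cytosolic ribosomal protein genes encode the protein part of the ribosomes that translate nuclear mRNAs. They were taken as all protein-coding genes whose GENCODE M21 symbol has the form of an Rpl or Rps name, with the 3 stalk genes Rplp0, Rplp1 and Rplp2 and with Rpsa, and without the Rps6k kinases. The rule found 84 of the 54532 listed genes, of which 52 encode proteins of the large 60S subunit and 32 encode proteins of the small 40S subunit. They lay on 19 chromosomes, 4 of them on X.

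A ribosome joins a small subunit, which reads the mRNA, to a large subunit, which forms the peptide bonds, and nearly every protein of both subunits is needed in 1 copy. Their mRNAs are among the most abundant of most cells and are known to be made in near-fixed proportions. Many begin with a C followed by a run of pyrimidines, the 5′ terminal oligopyrimidine (TOP) motif, through which the mTOR pathway and the protein Larp1 set their translation. A few members have a second copy elsewhere in the genome that is made in particular tissues or states.

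The libraries came from brain tissue of C57BL/6 mice that the labels call extratumoral, meaning outside the tumor. There was 1 poly-A RNA-seq library for each of 4 groups: old tumor-bearing, old naive, young tumor-bearing and young naive. Whether the tissue of tumor-bearing mice held tumor cells was not tested. Tumor-bearing mice had received 50000 GL261 cells, a glioma line from C57BL/6 mice, in the brain, and tissue was taken on day 21, while naive mice had no tumor although their labels carry the same cell line name. Young mice were 8 to 12 weeks old and old mice were given as 8 to 90 weeks old, so the lower bound of both ranges is the same. The sources used here do not say how many mice each library holds. With 1 library a group there is no spread between mice, so all differences below are between libraries, without a test, and the 95% intervals beside ratios cover counting error only.

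The old tumor-bearing library stood apart. Of its fragments in genes, 2.12% came from mitochondrially encoded genes, against 5.44% in old naive, 4.72% in young tumor-bearing and 5.51% in young naive tissue, and 19572251 to 23267925 fragments were recovered per library. Summed over 5 markers a cell type, neuronal genes reached 212 FPKM (fragments per kilobase of exon, scaled by a divisor for each library) in old tumor-bearing tissue, against 884 FPKM in old naive, 649 FPKM in young tumor-bearing and 749.8 FPKM in young naive tissue. Markers of dividing cells summed to 118 FPKM in old tumor-bearing and 0.458 FPKM in old naive tissue, and to 5.36 FPKM in young tumor-bearing and 0.732 FPKM in young naive tissue. Markers of monocytes and macrophages summed to 267 FPKM in old tumor-bearing, 12.5 FPKM in old naive, 31.1 FPKM in young tumor-bearing and 6.64 FPKM in young naive tissue. Microglial markers summed to 393 FPKM in old tumor-bearing, 138 FPKM in old naive, 140.1 FPKM in young tumor-bearing and 99.9 FPKM in young naive tissue. Between old tumor-bearing and old naive tissue only 1 of the 5, C1qa, was at least 2-fold higher, with a log2 ratio of 2.45. The median of the 5 was 0.13, and the lowest, P2ry12, was at -0.86. Choroid plexus markers were low in the old naive library alone, at 7.52 FPKM, against 456 FPKM in old tumor-bearing, 396 FPKM in young tumor-bearing and 412 FPKM in young naive tissue. All 5 neuronal markers, all 5 dividing-cell markers and all 5 choroid plexus markers had reads in every library, as had all microglial ones, and 1 of 5 monocyte and macrophage markers was at 0 reads in young naive tissue. Further marker lists were summed too, given here for old tumor-bearing and then old naive tissue. They gave 329 and 627 FPKM for astrocytes, 458 and 736 FPKM for oligodendrocytes, and 173 and 102 FPKM for endothelium. T and NK cells gave 20.4 and 0.521 FPKM, B and plasma cells 7.80 and 0.451 FPKM, and red blood cells 159.6 and 603.5 FPKM. The part of these differences in the values below was not tested, and in bulk tissue fewer cells of a type and less RNA per cell cannot be told apart.

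The start regions of members on which the results turn are shown first, because TOP runs and the sites of a few promoter factors are the sequence features that many of these genes have in common. RefSeq start windows on GRCm38.p6, of 250 bases before and 50 after each listed start, were found for 64 of the 84 members. For each of these the window nearest its GENCODE start was taken. The 32851 windows set beside them were not picked per gene in this way, and windows of members are among them. A TOP-like start, a C followed by at least 4 pyrimidines on the gene's strand beginning within 5 bases of the listed start, was present in 28 of the 64 (43.75%), against 18.35% of all 32851 windows. The letters CCGGAAG or their reverse CTTCCGG, the core bound by ETS factors such as Gabpa, were in 25 of 64 windows (39.06%), against 8.86% of all windows. The YY1 letters AAGATGGC or GCCATCTT were in 5 (7.81%, against 2.75%), the GC box GGGCGG or CCGCCC in 39 (60.94%, against 35.66%), and the TATA letters TATAAA or TTTATA in 6 (9.38%, against 13.62%). Both strands were searched for all but the TOP-like start, and a match is only a description of these letters. Below are 80 bases before and 20 after the listed start of 5 members, 5′ to 3′ on the gene's strand, with matches wholly inside the stretch in capitals.

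Rpl7a (chr2:26910727-26910826, plus strand): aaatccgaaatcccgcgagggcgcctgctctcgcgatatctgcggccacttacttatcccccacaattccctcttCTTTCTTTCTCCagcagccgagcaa

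Rps27 (chr3:90213629-90213728, minus strand): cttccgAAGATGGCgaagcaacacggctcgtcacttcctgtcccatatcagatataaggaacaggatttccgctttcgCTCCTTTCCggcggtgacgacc

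Rps27l (chr9:66946006-66946105, plus strand): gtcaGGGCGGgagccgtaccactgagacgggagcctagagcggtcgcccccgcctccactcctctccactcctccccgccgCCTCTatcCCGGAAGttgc

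Rpl22 (chr4:152325646-152325745, plus strand): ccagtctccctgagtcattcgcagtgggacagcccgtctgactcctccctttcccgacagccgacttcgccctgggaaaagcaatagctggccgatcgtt

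Rpl22l1 (chr3:28805428-28805527, plus strand): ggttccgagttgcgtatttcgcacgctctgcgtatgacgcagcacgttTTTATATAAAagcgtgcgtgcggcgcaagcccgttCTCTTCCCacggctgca

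In Rpl7a the capitals mark the TOP-like run. In Rps27 they mark the YY1 letters and then the TOP-like run. The Rps27l stretch holds a GC box, a TOP-like run and the ETS letters after the start. In Rpl22l1 the first capitals mark 2 overlapping TATA matches and the second a TOP-like run, and in the stretch of its parent gene Rpl22 none of the 5 patterns was found.

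Ribosomal protein mRNAs were abundant in all 4 libraries and took the largest share in old tumor-bearing tissue. The 84 genes summed to 17577 FPKM in old tumor-bearing and 8263 FPKM in old naive tissue, and to 6919 FPKM in young tumor-bearing and 7314 FPKM in young naive tissue. That was 6.46% of all FPKM in old tumor-bearing tissue, against 2.25% in old naive, 2.29% in young tumor-bearing and 2.33% in young naive tissue. The last 3 shares lay close together, and the first stood apart by a ratio of 2.87 to the old naive share. As a share of fragments, which weights long mRNAs more, the values were 3.44% in old tumor-bearing, 1.03% in old naive, 1.01% in young tumor-bearing and 1.04% in young naive tissue. The summed level of 60S over that of 40S members was 1.63 in old tumor-bearing tissue, against 1.47 in old naive, 1.51 in young tumor-bearing and 1.47 in young naive tissue. Single genes weigh on these sums. The 60S gene Rplp0 held 978 of 10882 FPKM of 60S members in old tumor-bearing and 138 of 4921 FPKM in old naive tissue. The ratio without Rplp0 was not formed.

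Of the 84 members, 77 reached 10 FPKM in at least 1 library. Their median level was 174 FPKM in old tumor-bearing, 79.3 FPKM in old naive, 67.0 FPKM in young tumor-bearing and 69.4 FPKM in young naive tissue, and 57 members reached 100 FPKM in old tumor-bearing, 31 in old naive, 24 in young tumor-bearing and 28 in young naive tissue. The highest level on average over the libraries was that of Rplp1, a protein of the acidic stalk that recruits translation factors to the large subunit. It had 1206 FPKM in old tumor-bearing and 822 FPKM in old naive tissue, and 633 FPKM in young tumor-bearing and 603 FPKM in young naive tissue. Rps15, of the head of the small subunit, followed with 619 FPKM in old tumor-bearing, 439 FPKM in old naive, 326 FPKM in young tumor-bearing and 345 FPKM in young naive tissue. Rplp0, the base of the stalk, had 978 FPKM in old tumor-bearing tissue, against 138 FPKM in old naive, 168 FPKM in young tumor-bearing and 144 FPKM in young naive tissue. Rpl36 and Rps3a1 completed the 5 highest. FPKM divides reads by the whole annotated exon length, from 383 bases in Rpl36 to 6270 in Rps15a, so ranks between members depend on that length. In young naive tissue Rplp1 had 6150 reads, while Rpl4, at 234 FPKM, had 9601. The 5 highest of each library, which were not the same genes in all, held 22.31% of the summed ribosomal protein FPKM in old tumor-bearing, 25.14% in old naive, 23.99% in young tumor-bearing and 22.93% in young naive tissue.

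The order of levels among the 77 members was almost the same in the 3 libraries other than old tumor-bearing. Spearman's rho across members was 0.989 between young tumor-bearing and young naive tissue and 0.987 between old naive and young naive tissue. It was 0.883 between old tumor-bearing and old naive tissue and 0.932 between old and young tumor-bearing tissue. These correlations run over genes that share a library and are a description of the profiles.

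**Figure D1:**
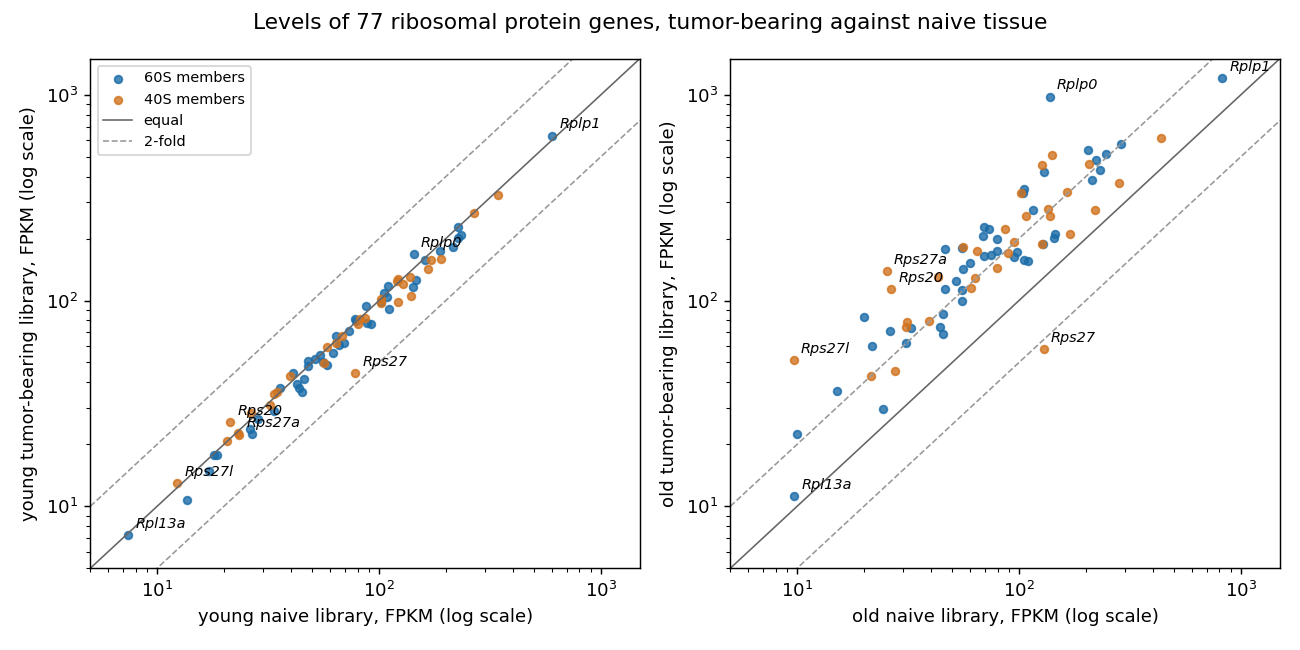
Level of the 77 ribosomal protein genes at 10 FPKM or more in the tumor-bearing library (vertical, FPKM, log scale) against the naive library (horizontal, FPKM, log scale), for young mice on the left and old mice on the right; each point is 1 gene, blue for 60S and orange for 40S members, with lines for equality and for 2-fold. In young mice the points follow the line of equality apart from Rps27, and in old mice 76 of 77 lie above it, with Rplp0, Rps27a, Rps27l and Rps20 far above and Rps27 below.

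The other 7 members stayed under 10 FPKM in all libraries. Tissue-restricted copies were among them: Rpl3l, known from striated muscle, with 0.0523 FPKM in old tumor-bearing, 0.233 FPKM in old naive, 0.365 FPKM in young tumor-bearing and 0.447 FPKM in young naive tissue, and the copies Rpl10l and Rpl39l, known from testis. Rpl10l had 0 reads in every library and Rpl39l at most 3. Rpl22l1 is described below. The remaining 3, Rpl24, Rpl36al and Rps10, were listed at most at 1.09, 0.540 and 3.68 FPKM in any library. Each of them lies on the strand of another annotated gene whose exons cover part of its own, 46.99% for Rpl24, 24.54% for Rpl36al and 20.55% for Rps10. The same holds for 35.38% of the exons of Rpl13a, the lowest of the 77 in 3 libraries, with 11.2 FPKM in old tumor-bearing, 9.68 FPKM in old naive, 7.21 FPKM in young tumor-bearing and 7.40 FPKM in young naive tissue. Near copies are other genes outside the family that do not overlap a member and share at least 10% of their 100-base windows with it. Of the reads summed with theirs, near copies held 93.43% in old tumor-bearing and 95.24% in old naive tissue for Rps10. In the same libraries they held 78.16% and 68.18% for Rpl24, 39.29% and 33.33% for Rpl36al, and 0% for Rpl13a. The part of such overlap and of near copies in these low values was not tested.

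The first comparison asked what a tumor went with in young mice. Ribosomal protein genes differed little between young tumor-bearing and young naive tissue. A member entered a comparison if either library had it at 1 FPKM or more. Ratios were formed after adding 0.1 FPKM to each value and put on the log2 scale, so those of low genes are pulled towards 0. Of 80 members that entered, 0 were at least 2-fold higher and 0 at least 2-fold lower, while among all 15500 genes 5.05% passed 2-fold upwards and 1.85% downwards. The members' median log2 ratio was -0.07, with quartiles of -0.18 and 0.02, beside -0.01 over all genes. By counting error alone, intervals lay above 1 for 6, below 1 for 34 and around 1 for 36 members on the deposited scale. These were the 76 members whose reads could be recovered whole. Other scalings tried between libraries moved the log2 ratios of this comparison by -0.04 to 0.06. The members' median then lay between -0.11 and -0.01. Intervals were not counted under these scalings or over all genes, so the lean below 1 was counted on the deposited scale and not checked on the others.

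The 5 highest among members at 10 FPKM or more were Rps20 (0.26 on the log2 scale), Rplp0 (0.23), Rpl23a (0.12), Rps18 (0.12) and Rpl23 (0.12). The 4 lowest of these were Rps27 (-0.82), Rpsa (-0.41), Rpl7l1 (-0.35) and Rpl17 (-0.32). Rpsa, a 40S protein also known as a laminin receptor precursor, had 105 FPKM in young tumor-bearing and 139 FPKM in young naive tissue. Rpl17, which lines the exit tunnel for the new peptide, had 36.1 FPKM in young tumor-bearing and 45.0 FPKM in young naive tissue. Its 8 near copies held 75.76% of the reads summed with its own in young tumor-bearing and 74.88% in young naive tissue. The log2 ratio of the summed reads was -0.27. Apart from Rps27, the named members thus lay within 0.41 of 0 on the log2 scale.

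The second comparison asked the same in old mice, and here nearly the whole family was higher with tumor. Of 79 members that entered, 51 were at least 2-fold higher in old tumor-bearing than in old naive tissue and 2 at least 2-fold lower, while among all 16488 genes 20.6% passed 2-fold upwards and 31.4% downwards. All 79 were at 1 FPKM or more in both libraries, and the 5 that did not enter were Rpl24, Rpl36al, Rpl3l, Rpl39l and Rpl10l. The median log2 ratio was 1.13, with quartiles of 0.82 and 1.45, beside -0.31 over all genes, and 77 of 79 lay above 0. The 60S members had a median of 1.16 (30 of 47 at least 2-fold higher) and the 40S members 1.04 (21 of 32). The 4 X-linked members lay at 0.58 to 1.85. The 4 other scalings tried between libraries moved all old tumor values up by 0.30 to 0.58, which took the all-gene median above 0 and left the members' median 1.37 to 1.40 above it, against 1.44 on the deposited scale. Under these 4 scalings 63 to 72 members were at least 2-fold higher and 0 at least 2-fold lower, and 0 were lower with the reads of near copies added, so neither of the 2 lower calls held. The 20.6% and 31.4% of all genes are for the deposited scale. The counts under the 4 scalings have no share over all genes beside them.

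**Figure D2:**
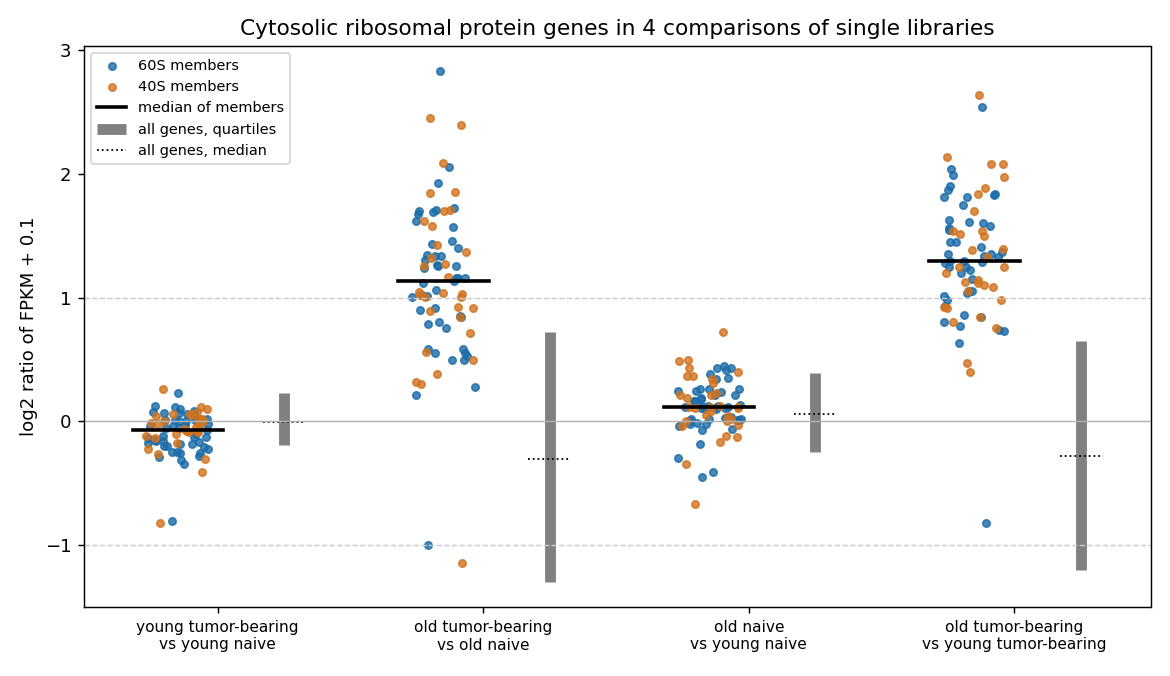
Log2 ratio of FPKM + 0.1 (vertical) of each ribosomal protein gene at 1 FPKM or more, in the 4 comparisons of single libraries; points are genes (blue 60S, orange 40S), the black line is the members' median, and the grey bar and dotted line are the quartiles and median of all genes that entered. For tumor-bearing against naive tissue the members' medians are 1.13 in old and -0.07 in young mice, and they are 0.11 between old and young naive tissue and 1.30 between old and young tumor-bearing tissue.

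The size of the difference was not even across the family. Rplp0 stood highest, with 978 FPKM in old tumor-bearing and 138 FPKM in old naive tissue, a ratio of 7.10 (95% interval 6.86 to 7.35). Its stalk partners were lower on this scale: Rplp2 had 179.6 FPKM in old tumor-bearing and 55.2 FPKM in old naive tissue, a ratio of 3.25 (3.09 to 3.43), and Rplp1 a ratio of 1.47 (1.43 to 1.51). The stalk genes, whose proteins meet in 1 complex, thus differed by ratios of 1.47 to 7.10, and their intervals did not overlap.

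Rps27a encodes ubiquitin fused to a 40S protein. It had 139 FPKM in old tumor-bearing and 25.4 FPKM in old naive tissue, a ratio of 5.49 (5.10 to 5.92). In young mice it had 22.3 FPKM in tumor-bearing and 23.5 FPKM in naive tissue, so 3 of the 4 libraries lay within a narrow range.

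Rps20, a 40S protein of the head of the subunit, had 113 FPKM in old tumor-bearing and 26.5 FPKM in old naive tissue, a ratio of 4.27 (4.06 to 4.50), and 25.7 FPKM in young tumor-bearing and 21.4 FPKM in young naive tissue. Rpl7a, a 60S protein, had 83.6 FPKM in old tumor-bearing and 20.1 FPKM in old naive tissue, a ratio of 4.17 (3.81 to 4.56), and 22.4 FPKM in young tumor-bearing and 26.7 FPKM in young naive tissue. In both genes the old tumor-bearing library alone was high. Rps6, whose protein is the best known substrate of the S6 kinases, was near the middle of the family, with 338 FPKM in old tumor-bearing and 164 FPKM in old naive tissue, a ratio of 2.07 (1.99 to 2.14).

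At the other end, Rpl13a, Rpl35a, Rps29 and Rps21 had the smallest positive log2 ratios, 0.21 to 0.32 on the deposited scale, which the other scalings raise by 0.30 to 0.58. Rps21 had 276 FPKM in old tumor-bearing and 221 FPKM in old naive tissue, a ratio of 1.249 (1.19 to 1.31). Rps29, a small zinc-binding 40S protein, had 209.7 FPKM in old tumor-bearing and 170.2 FPKM in old naive tissue, a ratio of 1.23 (1.16 to 1.30). Rpl35a had a ratio of 1.21 (1.13 to 1.30) and Rpl13a of 1.16 (1.01 to 1.34). Rps27 and Rpl22l1 were the 2 members below 0. Across the 77 members the log2 ratio had a Spearman's rho of -0.30 with the level in old naive tissue, 0.12 with exon length and -0.03 with the share of sequence a gene has in common with others, as a description across genes of the same libraries. The level in old naive tissue is also the divisor of the ratio, so a rho below 0 can follow from that alone.

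**Figure D3:**
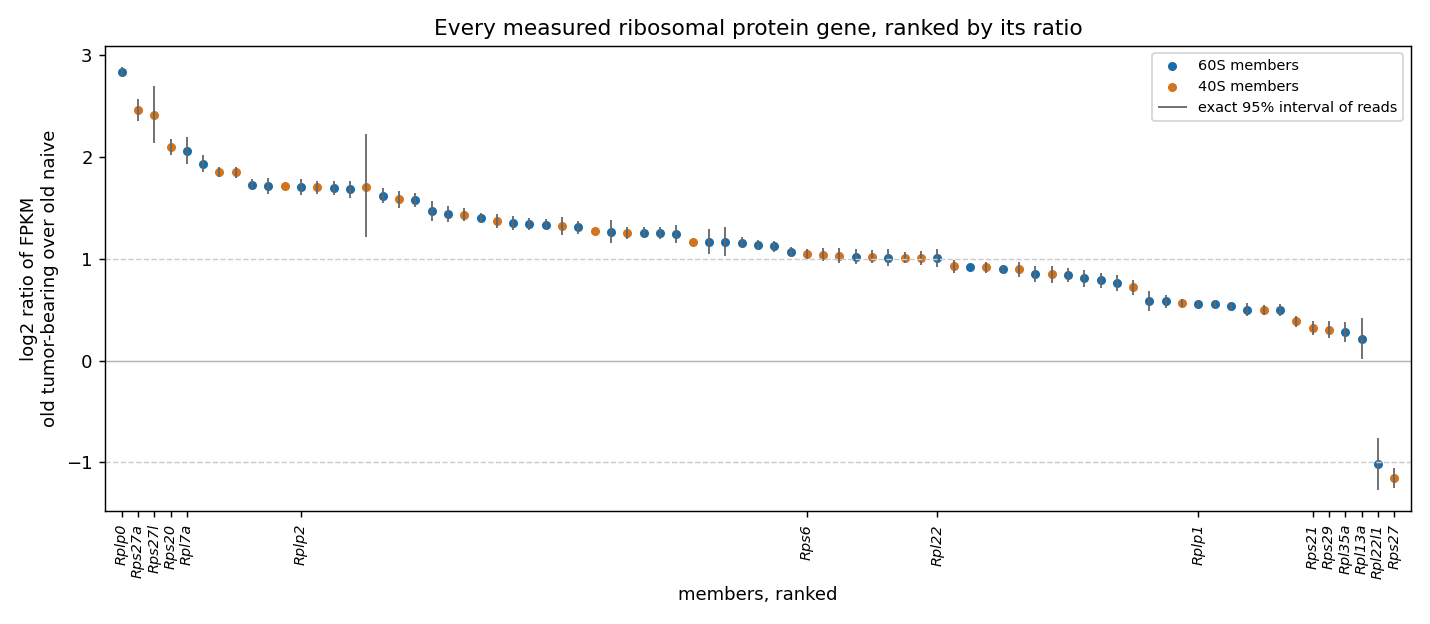
Log2 ratio of FPKM of old tumor-bearing over old naive tissue (vertical) for the 79 members that entered, ranked along the horizontal axis; points are genes (blue 60S, orange 40S) and bars are exact 95% intervals of the recovered reads, missing for 4 genes without whole reads; 15 of the genes named in the text are labelled. The series falls from Rplp0 at the left to Rpl13a without a break, and Rpl22l1 and Rps27 lie below 0 at the right.

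Rps27 was the lowest member in both tumor comparisons, and its values cannot be read apart from those of a second gene. It had 58.2 FPKM in old tumor-bearing and 129 FPKM in old naive tissue, a ratio of 0.451 (0.421 to 0.482), and 44.3 FPKM in young tumor-bearing and 78.1 FPKM in young naive tissue. Rps27 lies at chr3:90212522-90213651 on the minus strand (mm10). Rps27rt, an intronless protein-coding copy at chr9:114982366-114982739, does not match the symbol rule and ran the other way, with 413 FPKM in old tumor-bearing and 67.2 FPKM in old naive tissue, and 235 FPKM in young tumor-bearing and 148 FPKM in young naive tissue. Their coding sequences of 255 bases were identical, with 0 differences, and 89.45% of the 100-base windows of Rps27rt transcripts also occur in other genes. Reads in that shared sequence have no unique origin. The reads of both genes together gave a ratio of 1.35 (1.28 to 1.41) for old tumor-bearing over old naive tissue and of 0.978 (0.927 to 1.03) for young tumor-bearing over young naive tissue, so the summed value was higher with tumor in old mice and near equal in young mice.

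Rps27l, at chr9:66946086-66949516, is another copy, known as a target of p53, and its transcripts had 0% of their windows in common with other genes. Its coding sequence had 61 differences from that of Rps27 over 255 bases, an identity of 76.08%. The coding sequences of GENCODE M21 are shown 5′ to 3′ because they decide which reads can be told apart, with capitals where Rps27l differs from Rps27.

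Rps27 and Rps27rt: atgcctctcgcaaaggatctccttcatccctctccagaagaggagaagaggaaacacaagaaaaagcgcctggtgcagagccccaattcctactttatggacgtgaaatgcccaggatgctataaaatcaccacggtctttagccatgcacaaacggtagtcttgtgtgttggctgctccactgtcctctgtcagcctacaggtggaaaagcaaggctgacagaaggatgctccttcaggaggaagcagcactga

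Rps27l: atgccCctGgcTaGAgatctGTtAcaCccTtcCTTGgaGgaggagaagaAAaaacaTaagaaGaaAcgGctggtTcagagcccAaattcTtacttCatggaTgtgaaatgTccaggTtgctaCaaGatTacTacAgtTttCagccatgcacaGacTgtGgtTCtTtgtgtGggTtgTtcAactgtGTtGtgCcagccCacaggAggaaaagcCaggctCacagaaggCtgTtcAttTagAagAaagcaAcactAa

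Rps27l had 51.2 FPKM in old tumor-bearing and 9.63 FPKM in old naive tissue, a ratio of 5.31 (4.40 to 6.46), and 12.9 FPKM in young tumor-bearing and 12.3 FPKM in young naive tissue. It was thus among the 3 highest members in old mice and near equal in young mice. Of the FPKM summed over the 3 genes, it held 9.80% in old tumor-bearing, 4.68% in old naive, 4.43% in young tumor-bearing and 5.14% in young naive tissue.

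The pair Rpl22 and Rpl22l1 went apart in old tumor-bearing tissue. Rpl22, a 60S protein, lies at chr4:152325742-152334071, and Rpl22l1, its copy with introns, at chr3:28805436-28807424; in mice the Rpl22 protein is known to hold down Rpl22l1 mRNA. Rpl22 had 62.0 FPKM in old tumor-bearing and 30.9 FPKM in old naive tissue, and 26.5 FPKM in young tumor-bearing and 28.4 FPKM in young naive tissue. Rpl22l1 had 4.84 FPKM in old tumor-bearing and 9.80 FPKM in old naive tissue, and 8.65 FPKM in young tumor-bearing and 8.61 FPKM in young naive tissue. Rpl22l1 over Rpl22 was therefore 0.0781 (0.0680 to 0.0893) in old tumor-bearing tissue, against 0.317 (0.279 to 0.359) in old naive, 0.327 (0.290 to 0.367) in young tumor-bearing and 0.303 (0.269 to 0.340) in young naive tissue. The last 3 ratios overlapped in their intervals and the first lay below them. This ratio within a library does not depend on scaling, and 0% of the windows of Rpl22 and 9.47% of those of Rpl22l1 are shared with other genes.

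**Figure D4:**
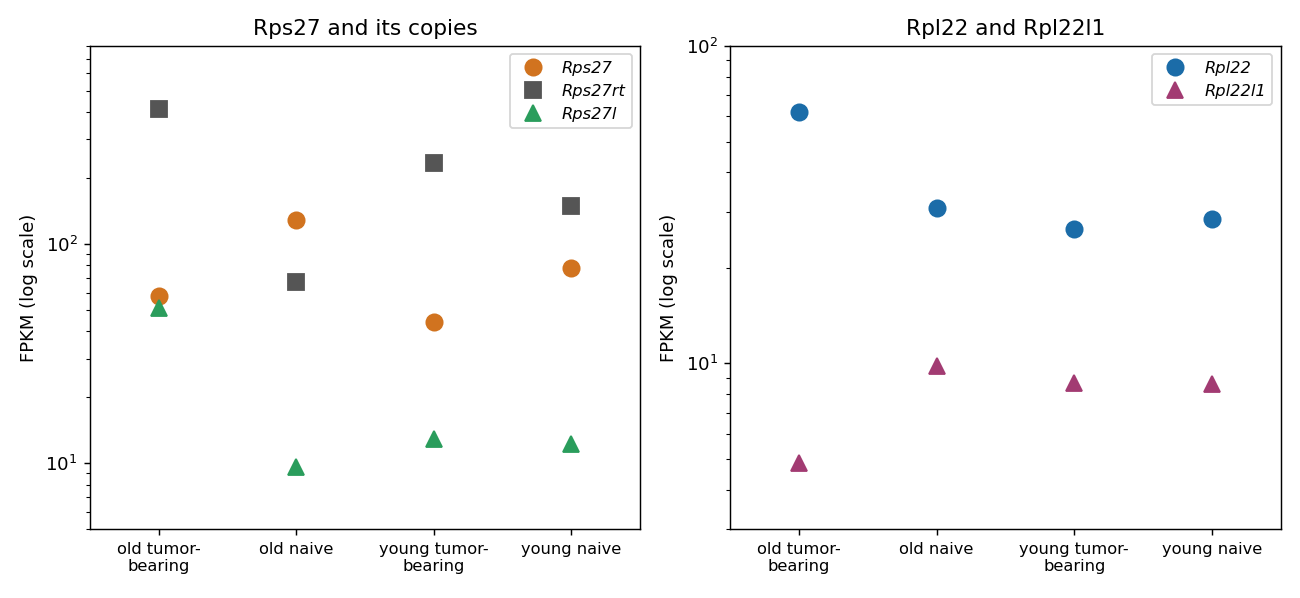
FPKM (vertical, log scale) in each library for Rps27, its identical-coding copy Rps27rt and Rps27l on the left, and for Rpl22 and Rpl22l1 on the right; each point is 1 library. Between tumor-bearing and naive tissue of the same age Rps27 and Rps27rt run in opposite directions, and Rpl22l1 is lowest in the library where Rpl22 is highest.

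The other copies that reached 1 FPKM were Rpl7l1 and Rps4l. Rpl7l1 had 22.4 FPKM in old tumor-bearing and 9.99 FPKM in old naive tissue, and 10.7 FPKM in young tumor-bearing and 13.7 FPKM in young naive tissue. Over its parent Rpl7 that was 0.112 in old tumor-bearing, 0.126 in old naive, 0.132 in young tumor-bearing and 0.175 in young naive tissue. Rps4l, which GENCODE M21 types as a transcribed pseudogene and which is therefore no member, had 7.66 FPKM in old tumor-bearing and 15.4 FPKM in old naive tissue, while its parent Rps4x, an X-linked 40S gene, had 456 FPKM in old tumor-bearing and 127 FPKM in old naive tissue. In young mice Rps4l had 19.6 FPKM in tumor-bearing and 20.4 FPKM in naive tissue.

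The third comparison asked about age without a tumor. Of 80 members that entered, 0 were at least 2-fold higher in old naive than in young naive tissue and 0 at least 2-fold lower, while among all 15419 genes 6.71% passed 2-fold upwards and 4.93% downwards. The members' median on the log2 scale was 0.11, beside 0.06 over all genes, and it changed sign with the scaling, lying between -0.11 and 0.09 under the other 4. Among members at 10 FPKM or more the 5 highest were Rps27 (0.73), Rps29 (0.50), Rps18 (0.49), Rplp1 (0.45) and Rpl35a (0.43), and the 4 lowest Rpl7l1 (-0.45), Rpl7a (-0.41), Rps27l (-0.35) and Rpl21 (-0.18). Rps29 had 170.2 FPKM in old naive and 120.5 FPKM in young naive tissue, and Rpl7a had 20.1 FPKM in old naive and 26.7 FPKM in young naive tissue.

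The fourth comparison set old against young tumor-bearing tissue, and shares the old tumor-bearing library with the second. Of 79 members, 61 were at least 2-fold higher in old than in young tumor-bearing tissue and 0 at least 2-fold lower, while among all 16562 genes 19% passed 2-fold upwards and 29.8% downwards. For the members the median log2 ratio was 1.30, beside -0.28 over all genes, and 78 of 79 lay above 0, the exception being Rpl22l1 at -0.82. The 5 highest were Rps27a (2.64), Rplp0 (2.54), Rps20 (2.14), Rps18 (2.08) and Rps2 (2.08). The 5 lowest at 10 FPKM or more were Rps27 (0.40), Rps3a1 (0.47), Rpl13a (0.63), Rpl35a (0.73) and Rpl3 (0.74). Rps2, a 40S protein near the mRNA entry site, had 507 FPKM in old and 120.3 FPKM in young tumor-bearing tissue. Rpl3, a 60S protein near the peptidyl transferase centre, had 210 FPKM in old and 126 FPKM in young tumor-bearing tissue.

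The log2 ratio of tumor-bearing over naive tissue was larger in old than in young mice for 78 of the 80 members, with a median difference of 1.24 on the log2 scale. It was more than 1 for 55 of the 80 (68.75%), against 19.33% of all 17441 genes, whose median was -0.32. With 1 library a group this difference was not tested.

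Other genes of the translation machinery were set beside the family. Over all genes 20.6% were 2-fold up and 31.4% 2-fold down in old mice with tumor, and the counts of each list stand against these shares. Of 18 elongation factors and other mRNAs with TOP starts, 8 passed 2-fold upwards and 0 downwards between old tumor-bearing and old naive tissue, and their median was 0.91. The most different was Npm1, a nucleolar chaperone of ribosome assembly, with 224 FPKM in old tumor-bearing and 35.3 FPKM in old naive tissue, and 49.7 FPKM in young tumor-bearing and 40.6 FPKM in young naive tissue. Pabpc1, the cytoplasmic poly-A binding protein, had 178 FPKM in old tumor-bearing and 29.0 FPKM in old naive tissue, and Tpt1 had 743 FPKM in old tumor-bearing and 174 FPKM in old naive tissue. Of ribosomal proteins that the symbol rule does not reach, Rack1, a scaffold on the 40S head, had 180.4 FPKM in old tumor-bearing and 32.8 FPKM in old naive tissue, while Fau had a log2 ratio of 0.56.

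Genes of ribosome biogenesis in the nucleolus, where rRNA is made and subunits are assembled, had a median log2 ratio of 1.02 in old mice, with 18 of 35 at least 2-fold higher and 0 lower. The most different was Ddx21, an RNA helicase of rRNA processing, with 39.2 FPKM in old tumor-bearing and 6.21 FPKM in old naive tissue. Of 46 translation initiation factors, 13 passed 2-fold upwards and 6 downwards, beside 20.6% and 31.4% of all genes, with a median of 0.47. The extremes were Eif3a at 1.69 and the Y-linked Eif2s3y at -1.51, which had 4.13 FPKM in old tumor-bearing, 12.0 FPKM in old naive, 13.7 FPKM in young tumor-bearing and 11.1 FPKM in young naive tissue. Mitochondrial ribosomal proteins, which build the separate ribosome of mitochondria, had a median of 0.09, with 3 of 77 at least 2-fold higher and 1 lower, against the cytosolic median of 1.13.

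Of 22 genes of the mTOR pathway and of transcription factors for ribosomal protein genes, 5 passed 2-fold upwards and 4 downwards in old mice, beside 20.6% and 31.4% of all genes, with a median of 0.05. Myc, which drives ribosome production, had 21.0 FPKM in old tumor-bearing and 1.48 FPKM in old naive tissue, and 2.67 FPKM in young tumor-bearing and 1.46 FPKM in young naive tissue. Eif4ebp1, a repressor of translation initiation that mTOR inactivates, had 16.8 FPKM in old tumor-bearing and 1.57 FPKM in old naive tissue, and Mycn, a relative of Myc, had 0.848 FPKM in old tumor-bearing and 3.12 FPKM in old naive tissue. Named ribosomal protein pseudogenes, which share sequence with their parents, had a median of 1.01, with 32 of 61 at least 2-fold higher and 0 lower, close to the median of the members. In young mice the medians of these lists lay between -0.20 and 0.05, and 0 genes of any but the pseudogene list (3 of 54 higher, 2 lower) were at least 2-fold apart, where 5.05% of all genes were higher and 1.85% lower.

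**Figure D5:**
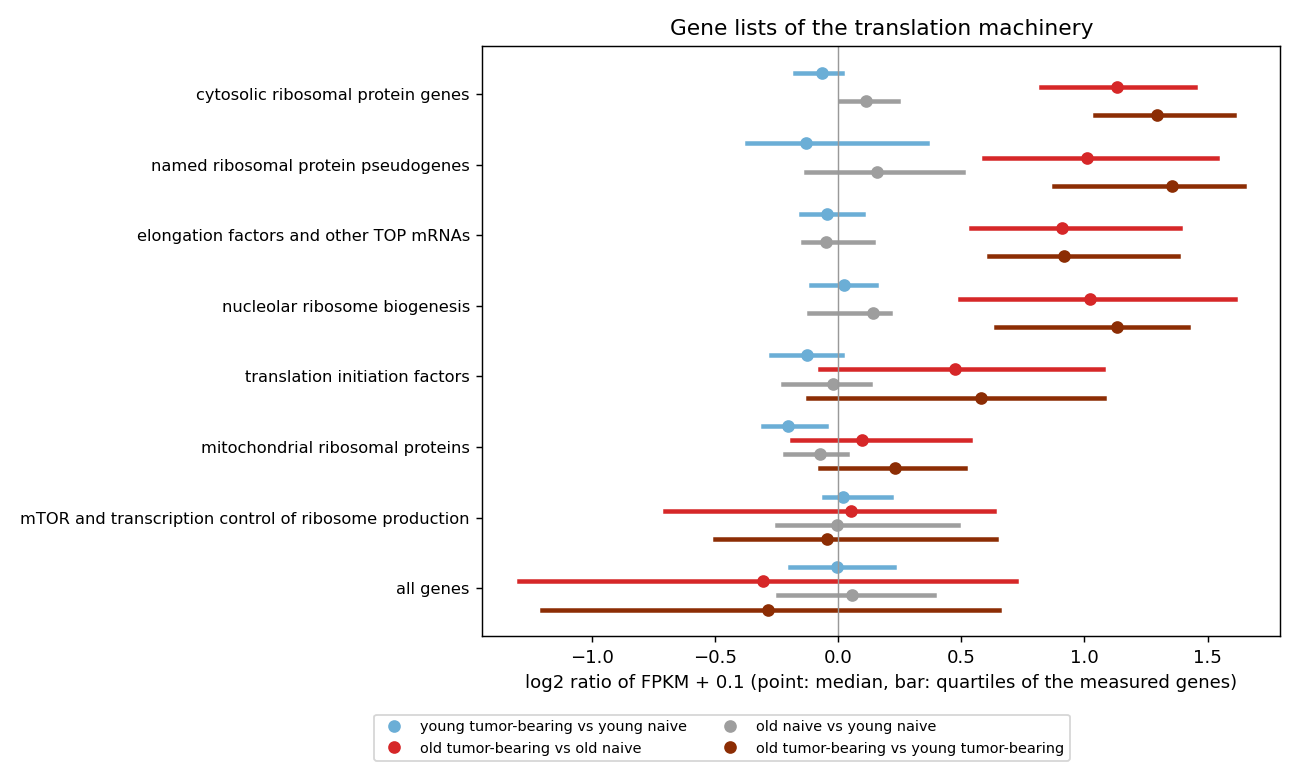
Median (point) and quartiles (bar) of the log2 ratio of FPKM + 0.1 (horizontal) for lists of the translation machinery and all genes, in the 4 comparisons. In both comparisons that hold the old tumor-bearing library, against old naive and against young tumor-bearing tissue, the medians are 1.13 and 1.30 for cytosolic ribosomal protein genes, 1.01 and 1.36 for their pseudogenes, 1.02 and 1.13 for ribosome biogenesis and 0.09 and 0.23 for mitochondrial ribosomal proteins.

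The members differ in how much sequence they have in common with other genes. Of the 84 members, 77 have at least 1 100-base window in common with another gene, with a median of 14.9% of their windows, and 18 have 25% or more. The 62 measured members under 25% had a median log2 ratio of 1.16 in old mice with 40 past 2-fold upwards and 2 downwards, and the 17 at or above 25% a median of 1.04 with 11 past 2-fold upwards and 0 downwards. With the reads of near copies added to each member, 51 were at least 2-fold higher in old mice, 0 were lower, and the median was 1.12.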

How the data were processed

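Poly-A RNA of 4 libraries, 1 per group, was analysed. The deposited values are FPKM, per the file headers. Per the submitters' processing notes, HISAT2 and the mm10 build were used. The sources used here name neither the counting program nor the annotation. The labels name a stranded and an unstranded preparation but not the one chosen, so it is unknown whether reads from opposite strands were kept apart.

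Symbols, types and exon lengths came from GENCODE M21, which named 54495 of 54532 genes. FPKM times exon length came in whole steps, which gave each gene's reads and the divisor of each library (15646445 to 23253749). Over the fragments recovered in genes, the divisor was 1.19 in old tumor-bearing and 0.797 in old naive tissue. It was 0.9135 in young tumor-bearing and 0.879 in young naive tissue. The divisor is thus not that fragment count, and deposited FPKM carry this difference between libraries. Of 32867 genes above 0 in a library, 31928 (97.14%) came out whole in every library (tolerance 0.03 reads or a relative 2e-05), and 80 of 84 members (not Rps14, Rps18, Rpl17 and Rps28, which have no interval). No count test was run on them, since 1 library a group leaves no spread to estimate. Ratios are of FPKM, with exact conditional binomial 95% intervals of the reads. Log2 ratios used a pseudocount of 0.1 FPKM and a floor of 1 FPKM. For a gene of 1 kb, 3 reads, the limit that a count of 0 allows, correspond to 0.129 to 0.192 FPKM.

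The text names, per comparison, the 5 highest and 5 lowest members at 10 FPKM or more, the 5 with the highest mean level, the copies with their parents, Rplp0, Rps6 and Rpsa, and up to 3 genes of each other list. Rplp2, Rps27rt, Rpl24, Rpl36al and Rps10 were named for their place in a complex, a shared sequence or a low level, and Rplp2 and Rps27rt after their values were seen. Some results for single genes under this rule are left out. The members and lists were chosen with earlier results of these data known. Alternatives were 4 scalings, other pseudocounts and floors, and members without copies or shared windows; summing near copies and leaving out shared windows were added after the data were seen. Promoter windows came from RefSeq (GRCm38.p6). Python 3.11.15, pandas 2.3.3 and scipy 1.17.1 were used, and the scripts were tested on simulated data.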

Additional observations from a re-analysis of the deposited data

Results flagged for a closer look

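Rpl7l1 and Rpsa lay on opposite sides of 0 with tumor in old and young mice. This was not particular to them, as 52 of 80 members lay below 0 in young and 77 of 79 above 0 in old mice. Over all genes, 7872 of 15500 lay below 0 in young and 6845 of 16488 above 0 in old mice. These sign counts are for the deposited scale, and signs were not counted under other scalings. The median difference between old and young mice over the family was 1.24. For Rpl7l1 the log2 ratio of tumor-bearing over naive tissue was 1.16 in old and -0.35 in young mice, a difference of 1.504. For Rpsa it was 0.56 in old and -0.41 in young mice, a difference of 0.97. With the reads of near copies added, Rpsa had 0.95 in old and -0.40 in young mice. With 1 library a group neither gene's difference was tested, and Rpl7l1 and Rpsa stood among the 4 lowest at 10 FPKM or more in young mice.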

How the results depend on the processing

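No paired analysis was possible because each group has 1 library, and for the same reason no library could be left out. Under median-of-ratios scaling, equal summed FPKM, scaling by fragments in genes, and equal summed FPKM without mitochondrial and the 50 highest genes, in that order, the members' median log2 ratio was 1.51, 1.56, 1.70 and 1.43 for tumor in old mice (1.13 as deposited), with 0 members at least 2-fold lower under each. For tumor in young mice it was -0.11, -0.0138, -0.0116 and -0.0091 (-0.07 as deposited). Between old and young naive tissue it was 0.0856, -0.11, -0.0261 and -0.0101 (0.11 as deposited), and between old and young tumor-bearing tissue 1.69, 1.45, 1.67 and 1.41 (1.30 as deposited). With a pseudocount of 1 FPKM the medians were 1.12 in old mice, with 1 member lower, and 1.29 between tumor-bearing tissues. With no floor the old median was 1.06 with 4 members lower, and 1 member was lower in young mice, 1 was higher between naive tissues and 1 lower between tumor-bearing tissues. A floor of 5 FPKM gave -0.0559 in young mice and 1.31 between tumor-bearing tissues, and leaving out the paralog copies gave 1.31 between tumor-bearing tissues. Members under 25% of shared windows gave 1.16 in old and -0.0489 in young mice. Near copies summed gave 1.12 in old mice with 0 lower, -0.0576 in young mice and 1.33 between tumor-bearing tissues. The members' share was 8.57%, 3.19%, 3.07% and 3.08% of protein-coding nuclear FPKM and 3.44%, 1.03%, 1.01% and 1.04% of fragments in old tumor-bearing, old naive, young tumor-bearing and young naive tissue. Counts of members under other scalings, pseudocounts and floors have no share over all genes beside them. The cause of these shifts was not tested beyond the scaling itself.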
